A study of Mus musculus with 9 samples.

Results

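The tumours of the HDC-A variant of the mouse melanoma line B16-F10, whose capacity to make histamine was diminished, were compared with tumours of the unmodified variant HDC-M. The comparison used the 3 arrays titled HDC-A and the 3 titled HDC-M, 6 of the 9 arrays in the series; the other 3 arrays, from HDC-S tumours with an enhanced capacity, served to ask which changes were found in HDC-A tumours alone. Each group comprised 6 tumours, and each array carried a pool of RNA from 2 of them, so the spread between arrays is that between pools. Tumour RNA was labelled with Cy5 and set against 1 common Cy3-labelled reference, RNA of HDC-M cells grown in culture, with no dye swap. All 3 groups are variants of B16-F10, and HDC-A and HDC-S were made by changing the level of L-histidine decarboxylase (HDC). Each group is 1 line variant, so a difference between the lines and an effect of histamine cannot be told apart. The labels used here give no host strain, age or time of growth.

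HDC is the only enzyme that makes histamine, which it forms from the amino acid histidine. Histamine is stored by mast cells and basophils, acts through G protein-coupled receptors, and is also made by melanoma cells. The groups of genes described below include the targets of p53, the transcription factor that halts the cell cycle after damage or stress; the feedback inhibitors of MAP kinase signalling, a pathway that drives melanoma growth; the amino acid response, in which the factor ATF4 turns on amino acid synthesis, uptake and tRNA charging; and sterol synthesis, the pathway to cholesterol.

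Values are log2 ratios of tumour over reference, and differences are HDC-A minus HDC-M on the log2 scale, where 1 is a 2-fold difference. A probe was called when its adjusted p from limma, corrected over all 26867 probes tested, was under 0.05. The Cy5 signal was well above background at 58% to 69.7% of probe spots on the 6 arrays. Across probes, pairs of arrays of 1 group correlated at r = 0.899 to 0.95 and pairs from different groups at 0.877 to 0.908. The melanocyte genes Tyr, Tyrp1, Dct, Pmel and Mitf had probes well above background on all 9 arrays, and no probe was named for Mlana or Sox10. In bulk tumour RNA, fewer cells of a type and less RNA per cell cannot be told apart.

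Hdc itself, the gene whose level was altered, did not separate the groups. Its log2 ratio was 0.15, 0.15 and 0.42 in the HDC-A pools and 0.60, 0.48 and 0.06 in the HDC-M pools, so the groups overlapped. The difference of -0.14 had a 95% interval from -0.46 to 0.17 (exact permutation p = 0.6, two-sided, with 0.1 the smallest p that 3 against 3 arrays allow). In the reference channel the Hdc spot, divided by the median negative control spot of its array, gave 0.982 to 1.05, so the denominator of its ratio was at background. Hrh3, a histamine receptor gene, was measured at 0.21, 0.34 and 0.14 in HDC-A and 0.00, 0.02 and 0.10 in HDC-M pools (difference 0.19, SE 0.07, adjusted p = 0.2). The other measured genes of the histamine system, Hrh2, Slc18a2 (the vesicular monoamine transporter), Maob and Aldh7a1 (enzymes of its breakdown), differed by -0.10 to 0.07 with adjusted p of 0.527 or more.

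In all, 387 probes were called, 1.44% of those tested. Of these, 207 (0.77%) were higher and 180 (0.67%) lower in HDC-A tumours, and 14 differed more than 2-fold. The median size of a called difference was 0.46, so most calls were modest. The number of calls depended on single arrays. Dropping HDC-A replicate 1, 2 or 3 left 140, 210 or 29 calls, and dropping HDC-M replicate 1, 2 or 3 left 34, 21 or 150. The HDC-S arrays enter through the shared estimate of spread, and dropping HDC-S replicate 1, 2 or 3 left 218, 178 or 185. With median centring in place of loess it was 2 (1 higher, 1 lower), and with the scanner software's own ratio 18 (12 higher, 6 lower). Replicates 1 and 2 of every group were scanned on one day and replicate 3 on another; with the scan day as a block 189 probes were called, and on the first day alone, with 2 arrays a group, 5 were. By the brightest probe of each gene, 270 of 13510 genes were called (2%), 144 higher (1.07%) and 126 lower (0.933%), and the median difference over all genes was 0.005. Functions are described below by 63 gene lists holding 1656 measured genes, 62 of which were called (3.74%). The lists were chosen with earlier results of these data known. Their shares of calls, here and below, are therefore descriptions and no test of whether a function moved. At least 1 called gene was found in 34 of the lists.

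**Figure D1:**
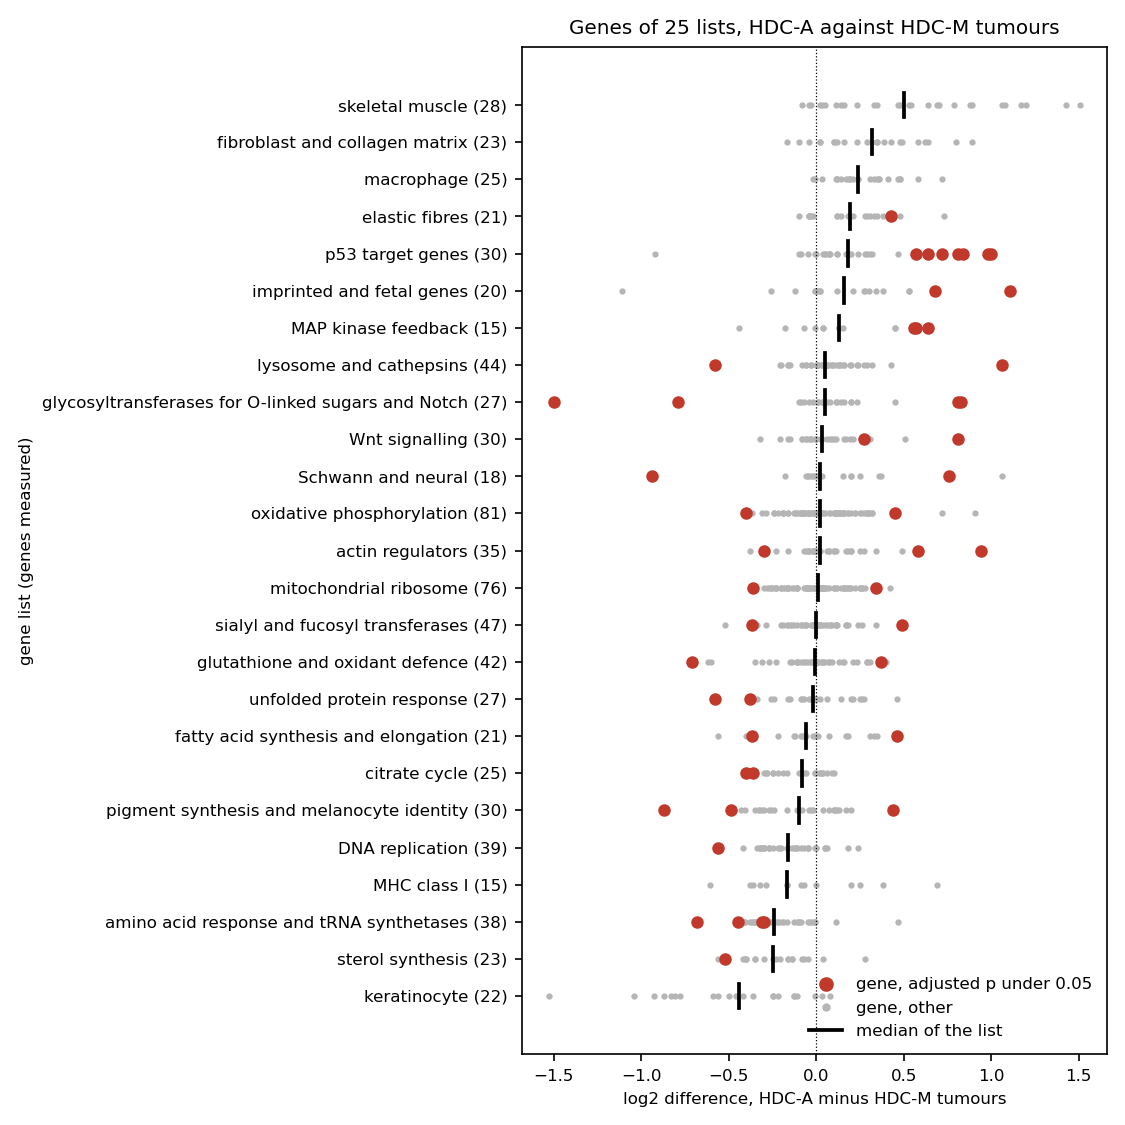
Each row is a gene list (number of genes measured in brackets) and each point a gene, placed by its log2 difference between HDC-A and HDC-M tumours; red points were called and the black bar is the median of the list. The p53 targets carry 7 red points, all to the right of 0. The amino acid response list carries 4, all to the left, and 36 of its 38 genes lie below 0. Its median is -0.24, but 0.11 with arrays scaled to 1 spread. The median of the p53 list is 0.18, but -0.06 with median centring, which shifted the median of all genes to -0.17.

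Genes that p53 turns on held more calls than any other list. Of 30 measured, 7 were higher in HDC-A tumours and none lower, where 1.07% of all genes were higher; 25 of the 30 lay above 0, and the median was 0.18, though -0.06 with median centring, which shifted the median of all genes to -0.17. Cdkn1a, the p21 inhibitor of cyclin-dependent kinases, was at 0.39, 0.20 and 0.65 in the HDC-A pools and -0.48, -0.59 and -0.61 in the HDC-M pools. Every HDC-A value of Cdkn1a lay above every HDC-M value, and it was called in each of 9 refits, every one lacking a different array. Phlda3, which restrains the kinase Akt, was at 0.39, 0.56 and 0.58 against -0.01, -0.07 and -0.29 (difference 0.64, SE 0.09, adjusted p = 0.02; called in 6 of the 9 refits). Zmat3, a zinc finger RNA-binding protein, was at 0.35 and 0.17 in the 2 HDC-A pools with a usable spot and -0.55, -0.51 and -0.67 in HDC-M (difference 0.84, SE 0.13, adjusted p = 0.0316; 3 of the 9 refits). Psrc1, a protein of the mitotic spindle, was at 1.38, 0.92 and 1.36 against 0.50, 0.42 and 0.57 (difference 0.72, SE 0.13, adjusted p = 0.0384; 2 of the 9 refits). Ddit4l, an inhibitor of mTOR signalling, was at -0.33, -0.76 and -0.53 against -1.09, -1.23 and -1.02 (difference 0.57, SE 0.11, adjusted p = 0.0422; 1 of the 9 refits). Trp53inp1, which promotes p53-driven arrest and death, and Ccng1, the gene for cyclin G1, were the remaining 2, called in 3 of the 9 refits each, with HDC-A pools at -1.22 to -0.68 and -0.88 to -0.41 and HDC-M pools at -2.09 to -1.75 and -1.50 to -1.32. Dimmer probes did not pass for Trp53inp1 (0.49, adjusted p = 0.11), Ddit4l (0.24, adjusted p = 0.409) and Psrc1 (0.63, adjusted p = 0.0629). Other dimmer probes of Ddit4l (0.60), Psrc1 (0.54) and Ccng1 (0.65) were called.

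The HDC-A and HDC-M arrays did not overlap for 12 of the 30 p53 targets, where they did not overlap for 23.5% of all genes. Several targets of the same factor were not called. Mdm2, the ligase that degrades p53, differed by 0.31 (adjusted p = 0.126), Bbc3, which encodes the death protein Puma, by 0.32 (adjusted p = 0.0863), Plk2 by 0.47 (adjusted p = 0.132) and Bax by 0.12 (adjusted p = 0.73). Perp, an adhesion gene, had the opposite sign (-0.92, adjusted p = 0.606). All 7 called targets also differed in the same direction from HDC-S tumours, and none was called between HDC-S and HDC-M tumours, where 0.681% of all probes were. The mean log2 ratio over the list was -0.13 to -0.09 on the HDC-A arrays, -0.40 to -0.31 on the HDC-M arrays and -0.47 to -0.40 on the HDC-S arrays, so HDC-A stood clear of both. Of the 7 genes, Psrc1, Zmat3 and Ddit4l map to chromosome 3, where many probes were higher, and the 24 targets outside chromosomes 3, 13, 14 and 16 had 4 calls and a median of 0.12.

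**Figure D2:**
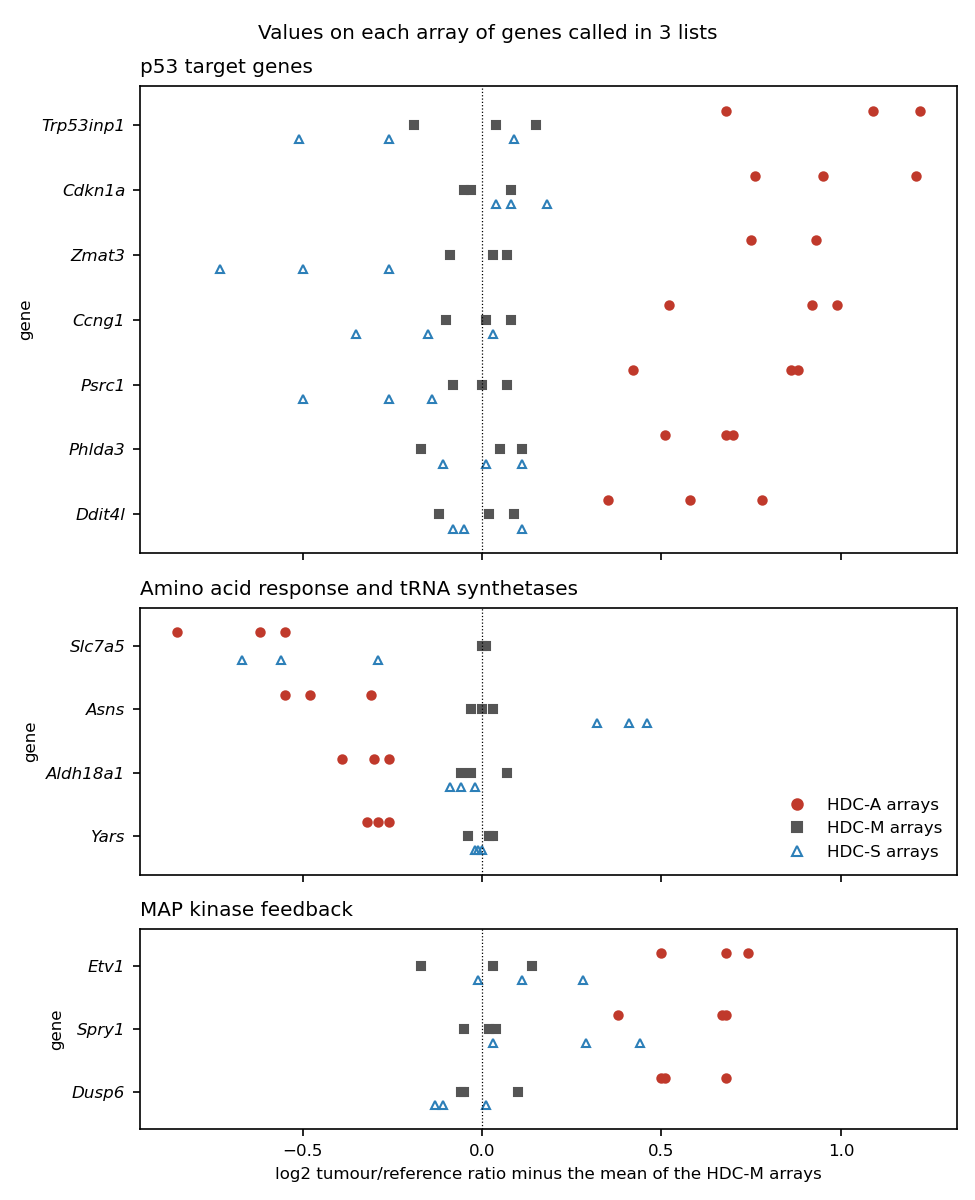
Log2 tumour/reference ratios of the called genes of 3 lists on each of the 9 arrays, each set against the mean of the HDC-M arrays; circles are HDC-A, squares HDC-M and open triangles HDC-S pools. For the 7 p53 targets every circle lies to the right of every square and triangle; for Slc7a5 the triangles lie beside the circles, and for Asns they lie on the other side of 0.

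Of 15 measured feedback inhibitors and targets of the MAP kinase pathway, 3 were called, all higher, where 1.07% of all genes were higher. The list median was 0.13, with 11 genes above 0 and 4 below. It was 0.06 without HDC-M replicate 3 and 0.01 without background correction. With median centring it was 0.00, but the median of all genes was then -0.17, and the list lay 0.18 above that. Dusp6, the phosphatase that switches off the kinase ERK, was at 1.39, 1.40 and 1.57 in the HDC-A pools and 0.99, 0.84 and 0.83 in the HDC-M pools (difference 0.56, SE 0.08, adjusted p = 0.015; called in 7 of the 9 refits). Etv1, a transcription factor of the ETS family that ERK activity maintains, was at 1.87, 1.69 and 1.93 against 1.33, 1.22 and 1.02 (difference 0.64, SE 0.10, adjusted p = 0.0297; 3 of 9 refits). Spry1, an inhibitor of receptor signalling to Ras, was at 0.64, 0.34 and 0.63 against -0.02, -0.09 and 0.00 (difference 0.57, SE 0.11, adjusted p = 0.0459; 2 of 9 refits). In none of these 3 genes did the groups overlap. The related genes Dusp4 (-0.44, adjusted p = 0.0623), Spry2 (0.13, adjusted p = 0.253), Spry4 (0.15, adjusted p = 0.586) and Etv5 (0.13, adjusted p = 0.627) did not pass. Dusp6 and Etv1 were apart from HDC-S tumours too, while Spry1 was not (0.33, adjusted p = 0.142).

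Of 38 measured genes of the amino acid response and the tRNA synthetases, 36 lay below 0 in HDC-A tumours and 4 were called, all lower, where 0.933% of all genes were lower, and the median was -0.24, though 0.11 when the arrays were scaled to 1 spread. The mean over the list was -1.39 to -1.31 on the HDC-A arrays and -1.16 to -1.12 on the HDC-M arrays, and the groups did not overlap for 21 of the 38 genes, against 23.5% of all genes. None of the 4 called genes lies on chromosomes 3, 13, 14 or 16. The median stayed between -0.28 and -0.20 when any 1 array was left out. In the scaled setting Asns turned to 0.32 as well.

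Asns, asparagine synthetase, was at -2.39, -2.63 and -2.56 in the HDC-A pools and -2.05, -2.08 and -2.11 in the HDC-M pools (difference -0.45, SE 0.07, adjusted p = 0.0297; called in 3 of the 9 refits). All tumour pools thus had far less Asns RNA than the cultured reference, and the HDC-A pools the least. Yars, the tyrosyl-tRNA synthetase gene, was at -0.81, -0.87 and -0.84 against -0.52, -0.59 and -0.53 (difference -0.30, SE 0.05, adjusted p = 0.0325; 0 of 9 refits). Aldh18a1, which starts proline synthesis, was at -0.89, -0.85 and -0.98 against -0.65, -0.62 and -0.52 (difference -0.31, SE 0.06, adjusted p = 0.0453; 0 of 9 refits). Slc7a5, the importer of leucine and other large neutral amino acids, was at -0.39, -0.16 and -0.09 against 0.46 and 0.47 on the 2 usable HDC-M arrays (difference -0.68, SE 0.13, adjusted p = 0.0453; 1 of 9 refits). Just past the threshold lay Nars (-0.36, adjusted p = 0.0575), Mthfd2 of mitochondrial one-carbon metabolism (-0.42, adjusted p = 0.0597), the glutamine transporter gene Slc38a2 (-0.41, adjusted p = 0.0656), Gars (-0.37, adjusted p = 0.0739) and Slc3a2, the partner chain of Slc7a5 (-0.38, adjusted p = 0.0799). Atf4 itself differed by -0.29 (adjusted p = 0.193), and Ddit4 had the opposite sign (0.47, adjusted p = 0.24). Gcat, which turns threonine into glycine and belongs to the serine and glycine list, was at -0.97, -1.28 and -1.26 in the HDC-A pools and -0.32, -0.40 and -0.32 in the HDC-M pools (difference -0.82, SE 0.10, adjusted p = 0.0125).

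Asns, Yars and Aldh18a1 were also lower than in HDC-S tumours, and Slc7a5 was not (-0.17, adjusted p = 0.492). With the replicate number as a block, Aldh18a1 no longer passed against HDC-S (adjusted p = 0.0779). Between HDC-A and HDC-S tumours, where 5.26% of all probes were called, 13 of the 38 genes were called, all lower in HDC-A. Asns was at -1.76, -1.62 and -1.67 in the HDC-S pools, above all HDC-M pools (difference HDC-S minus HDC-M 0.40, adjusted p = 0.0531). Between HDC-S and HDC-M tumours Trib3, a pseudokinase induced by ATF4, was higher by 0.65 (adjusted p = 0.049), and Atf4 differed by 0.40 (adjusted p = 0.11).

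Known targets of ATF4 carry a composite element for ATF4 and C/EBP factors, and since the list was put together from such targets, the promoters of its members are shown. The motif TGATGNAA was searched on both strands of the 250 bases before each annotated start in RefSeq (GRCm38.p6). It was found at 9 of the 31 measured members with a window in that table and at 3.91% of all 27025 genes. Of the 3 called members with a window, 1 had a match, Asns. The 9 members with a match had a median difference of -0.30 and the 22 without a match -0.20, and 9 and 21 of them lay below 0. In the stretches below the match is in capitals, on either strand. Asns (chr6:7693210-7693272, minus strand) was called, Gars (chr6:55037931-55038000, plus strand) and Pycr1 of proline synthesis (chr11:120643804-120643891, minus strand) were lower without passing (-0.37 and -0.35), and Slc7a11, the cystine importer gene (chr3:50443614-50443719, minus strand), has 2 matches and differed by -0.11 (adjusted p = 0.713).
Asns: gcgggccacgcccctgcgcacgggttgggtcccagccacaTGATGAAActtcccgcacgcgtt
Gars: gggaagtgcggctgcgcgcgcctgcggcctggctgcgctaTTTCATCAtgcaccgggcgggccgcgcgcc
Pycr1: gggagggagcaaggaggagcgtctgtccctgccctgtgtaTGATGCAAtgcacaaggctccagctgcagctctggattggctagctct
Slc7a11: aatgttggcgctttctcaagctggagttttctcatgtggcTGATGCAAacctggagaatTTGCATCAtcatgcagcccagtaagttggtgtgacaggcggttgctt
A match is a description of these letters and was not tested as a binding site.

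Sterol synthesis genes lay below 0 at 21 of 23, with a median of -0.25. Of the 23, 1 was called, lower in HDC-A, where 0.933% of all genes were lower. Msmo1, a sterol C4-methyl oxidase, was at -0.19, -0.42 and -0.22 in the HDC-A pools and 0.18, 0.37 and 0.18 in the HDC-M pools (difference -0.52, SE 0.09, adjusted p = 0.0297; called in 2 of the 9 refits). Close to the threshold were Dhcr7, the last step to cholesterol (-0.40, adjusted p = 0.0518), Lss, lanosterol synthase (-0.51, adjusted p = 0.0543), Sqle, squalene epoxidase (-0.35, adjusted p = 0.0655), and Fdft1, squalene synthase (-0.56, adjusted p = 0.0713). The arrays of the groups did not overlap for 12 of the 23 genes, against 23.5% of all genes. Leaving out any 1 array kept the median between -0.34 and -0.20, and scaling gave -0.44. Over all alternatives it ran from -0.65, with median centring, which shifted the median of all genes to -0.17, to -0.10. HDC-A was lower than HDC-S by a median of -0.24 as well, while HDC-S and HDC-M differed by -0.01.

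Srebf1, whose SREBP-1 proteins drive fatty acid and sterol synthesis genes, was higher, at 1.07, 1.14 and 1.14 against 0.63, 0.62 and 0.70 (difference 0.46, SE 0.06, adjusted p = 0.0145; 6 of 9 refits). It moved in the direction opposite to the sterol genes. Elovl5, an elongase of polyunsaturated fatty acids, was lower, at 0.40, 0.54 and 0.46 against 0.83, 0.88 and 0.80 (difference -0.37, SE 0.07, adjusted p = 0.0384; 1 of 9 refits). The stearoyl-CoA desaturase gene Scd1 did not pass (-0.38, adjusted p = 0.0766). The other 2 lipid calls were Bdh1, the ketone body dehydrogenase, at -0.86, -1.20 and -0.88 against 0.37, 0.38 and 0.04 (difference -1.24, SE 0.16, adjusted p = 0.0145), and Smpd1, acid sphingomyelinase of the lysosome, lower by -0.58 (SE 0.11, adjusted p = 0.0378; 0 of 9 refits).

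Genes that copy DNA and carry out mitosis were mostly a little lower. The replication list and the G2 and mitosis list had 1 call each, both lower, where 0.933% of all genes were lower. Of 39 replication genes 33 lay below 0, with a median of -0.16, and of 43 G2 and mitosis genes 37 did, with a median of -0.12. Cdc25b, the phosphatase that starts mitosis by activating Cdk1, was at -0.06, -0.30 and -0.21 against 0.30, 0.38 and 0.40 (difference -0.55, SE 0.07, adjusted p = 0.0145; 6 of 9 refits), and a second probe was also called (-0.34) while the remaining probe was not (0.05, adjusted p = 0.796). Rfc4, a subunit of the clamp loader, was at 0.30, -0.02 and 0.00 against 0.77, 0.62 and 0.56 (difference -0.56, SE 0.10, adjusted p = 0.037; 1 of 9 refits), and it lies on chromosome 16. Cdc45, also on chromosome 16 (-0.42, adjusted p = 0.0885), Mcm10 (-0.32, adjusted p = 0.0943), Pold1 (-0.32, adjusted p = 0.0585) and Mcm5 (-0.32, adjusted p = 0.116) did not pass. The list mean of the replication genes was 0.75, 0.52 and 0.60 on the HDC-A arrays and 0.79, 0.73 and 0.81 on the HDC-M arrays, so HDC-A replicate 1 overlapped HDC-M. That of the G2 and mitosis genes was 0.77, 0.54 and 0.66 against 0.76, 0.78 and 0.76, where HDC-A replicate 1 overlapped HDC-M as well. Without HDC-A replicate 2 the median of the replication genes was -0.12.

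Among 30 genes of pigment synthesis and melanocyte identity, 2 were lower and 1 higher, where 0.933% and 1.07% of all genes were. The median was -0.10, and -0.25 without the genes of chromosomes 3, 13, 14 and 16. Syngr1, a synaptogyrin, was at 0.38, 0.52 and 0.67 against 1.05, 1.16 and 0.82 (difference -0.49, SE 0.10, adjusted p = 0.049; 1 of 9 refits). Sytl2, which ties melanosomes to the plasma membrane through Rab27a, was at -1.54, -1.68 and -1.87 against -1.01, -0.83 and -0.64, and it was as low in the HDC-S pools (-1.92, -1.44 and -1.74). Kit, the receptor of melanoblasts, was at 0.86, 0.82 and 1.03 against 0.54, 0.57 and 0.28, and at 1.18, 1.23 and 1.16 in HDC-S. The call of Kit between HDC-A and HDC-M (0.44, adjusted p = 0.0493) was made in 0 of 9 refits, and the difference was 0.15 (adjusted p = 0.378) without background correction. Pmel, the fibril protein of melanosomes, was lower by -0.47 without passing (adjusted p = 0.0697). Dct, the dopachrome tautomerase gene, gave opposite answers by probe. Its dimmer probe was at 0.60, 0.45 and 0.55 in HDC-A, 1.36, 1.51 and 1.36 in HDC-M and 1.26, 1.43 and 1.35 in HDC-S pools (difference from HDC-M -0.88, SE 0.07, adjusted p = 0.00406; called in 9 of 9 refits), while its brighter probe did not differ past the threshold (0.12, adjusted p = 0.814).

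Enzymes that add sugars to proteins moved both ways. Of 27 glycosyltransferases for O-linked sugars and Notch, 2 were higher and 2 lower, around a median of 0.05, where 1.07% and 0.933% of all genes were. Galnt6, which starts mucin-type O-glycans, was at 1.14, 1.11 and 1.07 against 0.34, 0.28 and 0.27 (difference 0.81, SE 0.06, adjusted p = 0.00156; 9 of 9 refits), although its second probe was not called (0.17, adjusted p = 0.347). Gcnt1, which branches the same glycans, was at 1.22, 1.43 and 1.29 against 0.54, 0.58 and 0.34 (difference 0.83, SE 0.11, adjusted p = 0.0145; 6 of 9 refits), and neither of its other probes was called (0.07 and 0.15). Gxylt2, which extends O-glucose on Notch repeats, was at -1.23, -1.32 and -1.68 against 0.02, 0.12 and 0.13, and Eogt, which adds O-linked N-acetylglucosamine in the endoplasmic reticulum, at 0.08, 0.11 and 0.27 against 0.84, 0.93 and 1.06. Galnt6, Gcnt1 and Eogt were shifted the same way in HDC-S tumours, by 0.67, 0.77 and -0.71 from HDC-M, and were not apart from them. Gxylt2 was (-1.05 from HDC-S, adjusted p = 0.00645). In the sialyltransferase list St3gal5, which makes the ganglioside GM3, was higher (0.49, SE 0.09, adjusted p = 0.0449; 1 of 9 refits) and St3gal6 lower (-0.37, SE 0.07, adjusted p = 0.0452; 0 of 9 refits), and both were apart from HDC-S.

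Single genes of adhesion, matrix and the cytoskeleton were higher, with list medians near 0. Itga4, the alpha chain of the integrin VLA-4, was at 0.44, 0.28 and 0.30 against -0.41, -0.32 and -0.15 (difference 0.63, SE 0.09, adjusted p = 0.02; 5 of 9 refits), with a second probe at 0.01 (adjusted p = 0.966). Pfn2, a profilin that feeds actin to growing filaments, was at 0.04, 0.16 and 0.18 in HDC-A, -0.40, -0.50 and -0.47 in HDC-M and -0.83, -0.78 and -0.85 in HDC-S pools, and it was called in 9 of 9 refits. Its second probe was not called (0.30, adjusted p = 0.0659). Enah, which lengthens actin filaments at the leading edge, was at -1.59, -1.94 and -1.70 against -2.63, -2.93 and -2.50 (difference 0.94, SE 0.12, adjusted p = 0.0145; 6 of 9 refits), and it was raised in HDC-S as well (0.76, adjusted p = 0.0398). Rdx, which links actin to the membrane, was lower (-0.30, SE 0.06, adjusted p = 0.0454; 0 of 9 refits). Emb, a partner of monocarboxylate transporters and integrins, was at 0.97, 1.05 and 1.20 against 0.11, -0.06 and 0.27 (difference 0.97, SE 0.09, adjusted p = 0.00407; 9 of 9 refits), and its second probe was called too (0.95). Hapln1, the link protein of hyaluronan matrix, had the largest difference of the called probes (1.8), with pools at 2.23, 1.65 and 2.34 against 0.21, 0.23 and 0.40; its second probe was called as well (1.30), and the HDC-S pools lay between (0.92, 0.73 and 1.61).

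Of 20 imprinted and fetal genes, 2 were higher, where 1.07% of all genes were. Their median was 0.16, which was 0.05 without HDC-A replicate 2 and 0.09 without background correction. With median centring it was 0.02, but the median of all genes was then -0.17, and the list lay 0.20 above that. Hmga2, an architectural chromatin protein of embryonic cells, was at 0.86, 1.00 and 0.91 against 0.24, 0.28 and 0.20 (difference 0.68, SE 0.06, adjusted p = 0.00407; 9 of 9 refits), though its second probe was not called (0.19, adjusted p = 0.675). Afp, alpha-fetoprotein, was at 0.87, 0.74 and 1.05 against -0.27, -0.32 and -0.08. Igf2bp3, an RNA-binding protein of fetal tissue, did not pass (0.53, adjusted p = 0.0561). In the Wnt list Tcf7l1, a repressor of Wnt targets, was at 1.45, 1.24 and 1.03 against 0.40, 0.40 and 0.48 (difference 0.81, SE 0.13, adjusted p = 0.0264; 3 of 9 refits), and the receptor gene Fzd2 was higher by 0.27 (adjusted p = 0.0499; 0 of 9 refits). Axin2, a target gene of the same pathway, did not pass and had the opposite sign (-0.32, adjusted p = 0.0697). S100b, a calcium-binding protein of melanoma and Schwann cells, was at 0.92, 1.02 and 1.12 against 0.10, 0.30 and 0.38 (difference 0.76, SE 0.12, adjusted p = 0.0283; 3 of 9 refits), and Fez1, an adaptor of kinesin transport, was lower by -0.94 (adjusted p = 0.00692; 9 of 9 refits).

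Mitochondrial and protein folding genes changed singly, where 1.07% of all genes were called higher and 0.933% lower. The calls in the oxidative phosphorylation and mitochondrial ribosome lists were near these shares. The oxidative phosphorylation list had a median of 0.02 over 81 genes, with Cox7c of complex IV higher (0.45, SE 0.07, adjusted p = 0.0276) and Uqcrc1 of complex III lower (-0.40, SE 0.08, adjusted p = 0.0428). Of 25 citrate cycle genes, Pdhb, a subunit of pyruvate dehydrogenase (-0.40, SE 0.06, adjusted p = 0.0211; 5 of 9 refits), and Sucla2, of succinyl-CoA synthetase (-0.36, SE 0.06, adjusted p = 0.0306; 4 of 9 refits), were lower, and both lie on chromosome 14. The mitochondrial ribosome list of 76 genes had 1 gene higher, Mrps30 (0.34), 1 lower, Mrpl40 (-0.36, on chromosome 16), and a median of 0.01. In the unfolded protein response, Fkbp11, a prolyl isomerase of secretory cells, was at -1.87, -1.85 and -2 against -1.41, -1.40 and -1.16 (difference -0.58, SE 0.11, adjusted p = 0.0446), and Sdf2l1, a chaperone cofactor on chromosome 16, was lower by -0.38 (adjusted p = 0.0374). Among 42 genes of oxidant defence, Gpx8, a peroxidase of the endoplasmic reticulum on chromosome 13, was higher (0.37, adjusted p = 0.0395) and Gsta4, which conjugates lipid peroxidation products, lower (-0.71, SE 0.12, adjusted p = 0.0322). Gpx8 and Mrps30 turned sign with median centring (-0.05 and -0.08), which shifted the median of all genes to -0.17.

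Lists of the other cells that a tumour can hold gave no call in macrophage, fibroblast, skeletal muscle or keratinocyte genes. MHC class I, a pathway list and not one of a cell type, gave none either. The medians of all 5 were among the most extreme. Skeletal muscle genes had a median of 0.50, with 25 of 28 above 0 and Myot at 1.21, 2.06 and 1.53 against 0.81, 0.46 and 0.34 (difference 1.06, adjusted p = 0.0859). Their mean was 1.48, 2.01 and 1.08 on the HDC-A arrays and 1.22, 0.88 and 0.91 on the HDC-M arrays; the median without HDC-A replicate 2 was 0.16. Fibroblast and collagen genes had a median of 0.32, which was 0.01 without HDC-A replicate 2, the array with the highest mean (2.44, against 1.31 and 1.42 in the other HDC-A pools and 1.23 to 1.62 in HDC-M). Macrophage genes had a median of 0.24, which was -0.03 without HDC-M replicate 3, 0.06 without HDC-A replicate 2 and -0.03 with arrays scaled to 1 spread. Keratinocyte genes had a median of -0.44, which was -0.05 without HDC-M replicate 1, where Krt1 was at 2.88 and Lce1a1 at 3.47. MHC class I genes had a median of -0.17, with a mean of 1.22 in HDC-A replicate 1 and 2.31 and 2.71 in the other HDC-A pools, and a median of 0.32 without that array. The list means of all 5 overlapped between HDC-A and HDC-M arrays. The part of these cells in the calls of tumour genes was not tested. Of 10 mast cell and basophil genes, the classical makers of histamine in tissue, 1 was called higher, where 1.07% of all genes were. It was Kit, which melanocytes also express, and the median of the list was -0.02. The 21 elastic fibre genes had a median of 0.19, which was 0.07 without HDC-A replicate 2 and 0.08 without background correction. Among them 1 was called higher, where 1.07% of all genes were. It was Emilin1 (0.43, SE 0.08, adjusted p = 0.0428, called in 0 of 9 refits).

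**Figure D3:**
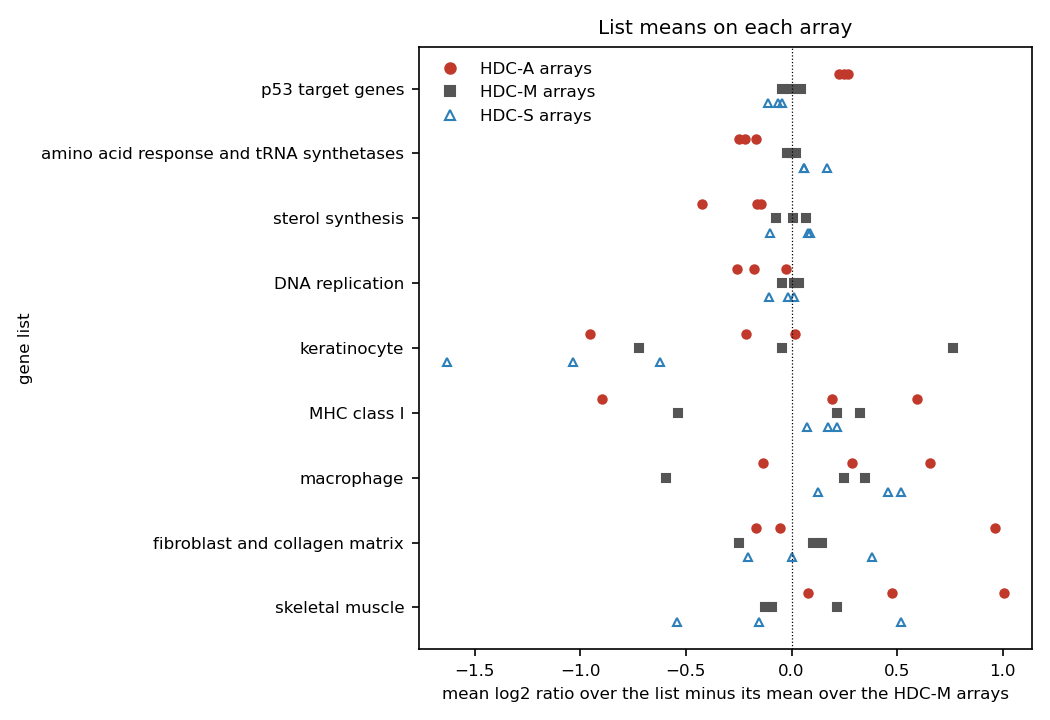
Mean log2 ratio over the genes of a list on each array, set against its mean over the HDC-M arrays. The HDC-A arrays lie apart from the HDC-M arrays for the p53, amino acid response and sterol lists, and the groups overlap for the keratinocyte, MHC class I, macrophage and fibroblast lists.

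The changes found in HDC-A tumours and not to the same extent in HDC-S tumours were taken as the probes called in the same direction against both other groups. These were 216 probes, 0.804% of those tested, of which 134 (0.499%) were higher and 82 (0.305%) lower. By the brightest probe of each gene they were 1.17% of genes. Leaving out any 1 array brought the 216 to between 14 and 143, and median centring brought it to 1. The comparisons share the HDC-A arrays. Same-numbered HDC-A and HDC-S arrays deviated together, mostly in replicate 2 (r = 0.548, against 0.107 and 0.131 in replicates 1 and 3). With the replicate number as a block 122 probes were apart from both. With that block all 7 p53 targets, Dusp6, Etv1, Afp and Hmga2 were still apart, and none of the amino acid response genes was, since Asns (adjusted p = 0.0576 against HDC-M), Yars (0.0599) and Aldh18a1 (0.0796) no longer passed. The lists with most genes apart from both groups were the p53 targets (7 of 30, all higher) and the amino acid response (3 of 38, all lower). Lists with 2 such genes in 1 direction were MAP kinase feedback (Dusp6 and Etv1) and the fetal genes (Afp and Hmga2), all higher. Further genes apart from both and outside these lists were Emb, Zfp618, a zinc finger gene (0.85 from HDC-M, SE 0.10, adjusted p = 0.0125, with pools at 1.00, 0.89 and 0.87 against -0.11, 0.01 and 0.30), and Armcx4 (0.88, SE 0.11, adjusted p = 0.0145). The second probe of Armcx4 was not called against HDC-M (0.33, adjusted p = 0.0885). On the lower side were Fez1, Gxylt2, Bdh1, Gcat, Cdc25b and the dimmer Dct probe, and Gsta4, which the block left short of the threshold against HDC-M (adjusted p = 0.0584). Called in both variants against the same HDC-M arrays, which favours a common direction, were Galnt6, Gcnt1, Enah, Kit, Eogt, Sytl2, Fzd2, Smpd1 and Coro7, and Ahr, the aryl hydrocarbon receptor gene, at 0.81, 1.41 and 1.20 in HDC-A, 0.34, 0.13 and 0.37 in HDC-M and 1.35, 1.82 and 1.33 in HDC-S pools.

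The called probes were spread unevenly over the chromosomes given for them in the array files, which name no genome build. This pattern was noticed in the data and is described without a test. On chromosome 3, 40 probes were higher and 1 lower of 1317 tested, and on chromosome 13, 39 were higher and 4 lower of 948. On chromosome 14 the directions were reversed, with 1 higher and 32 lower of 908, and on chromosome 16 none was higher and 39 were lower of 839. These 4 chromosomes held 14.9% of the probes tested and 40.3% of the calls; 3.89% of their probes were called, against 1.01% of the others. Without them 231 calls remained, 127 higher and 104 lower.

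**Figure D4:**
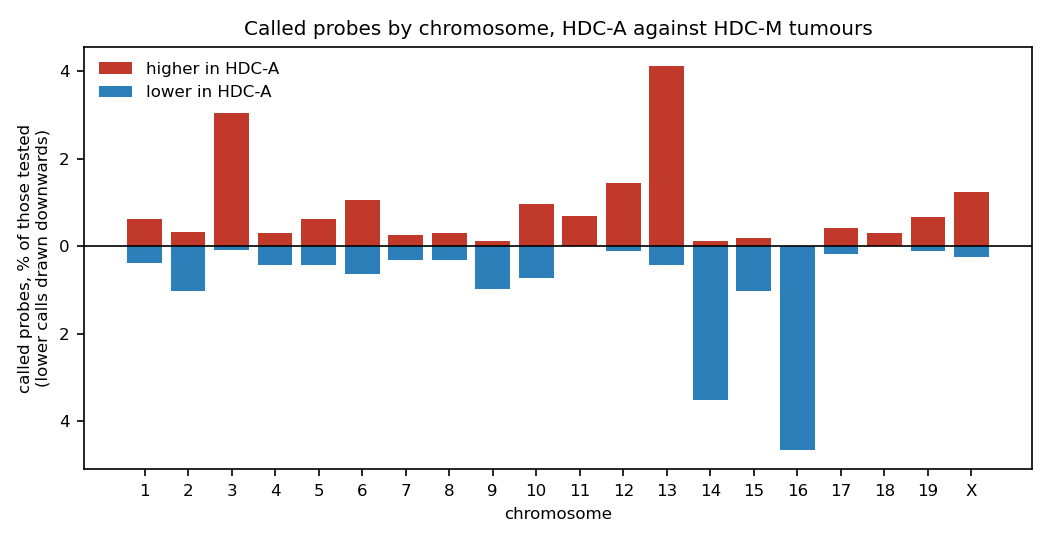
Share of tested probes called higher (red, upwards) or lower (blue, downwards) in HDC-A tumours relative to HDC-M, by chromosome. Chromosomes 3 and 13 stand out upwards (3.04% and 4.11%) and chromosomes 14 and 16 downwards (3.52% and 4.65%).

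The shift was small and broad, and it was not carried by the called probes alone. Over the 21303 probes well above background on all 9 arrays, the median difference was 0.12 on chromosome 13, 0.09 on chromosome 3, -0.12 on chromosome 14 and -0.11 on chromosome 16, while the medians of the other 16 chromosomes lay between -0.065 and 0.042. Measured against all probes of the same array, the median of chromosome 13 was -0.005 to 0.029 in the HDC-A pools, -0.109 to -0.049 in the HDC-M pools and -0.112 to -0.100 in the HDC-S pools. That of chromosome 3 was 0.000 to 0.017, -0.104 to -0.034 and -0.088 to -0.078. On chromosome 14 it was -0.081 to -0.028, 0.040 to 0.051 and 0.027 to 0.045, and on chromosome 16 it was -0.131 to -0.104, -0.016 to 0.002 and -0.068 to -0.039. The 3 HDC-A arrays lay beyond all 6 others on each of the 4 chromosomes. The same held, with smaller medians, on chromosome 2 (-0.047 to -0.041 in HDC-A, 0.007 to 0.020 elsewhere) and on chromosomes 9, 10 and 15. On chromosome 15, however, the HDC-S pools stood furthest off, at 0.090 to 0.126, with HDC-A at -0.040 to -0.023 and HDC-M at -0.011 to -0.001. With each chromosome's probes split in order into 10 equal blocks, all 10 blocks of chromosomes 14 and 16 had medians below 0, from -0.199 to -0.068 and from -0.169 to -0.05. On chromosome 13 blocks 3 to 10 lay between 0.083 and 0.196 and blocks 1 and 2 at 0.021 and 0.014, and on chromosome 3 blocks 1 to 9 lay between 0.038 and 0.168 and block 10 at -0.001. A run of 10 blocks on 1 side of 0 was also found on chromosomes 2 (-0.082 to -0.039), 9 (-0.113 to -0.004), 8 (0.002 to 0.030) and 11 (0.019 to 0.082). Shifts of this kind were not limited to HDC-A. Between HDC-S and HDC-M tumours, chromosome 15 had 32 probes called higher and 1 lower, with a median difference of 0.142.

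**Figure D5:**
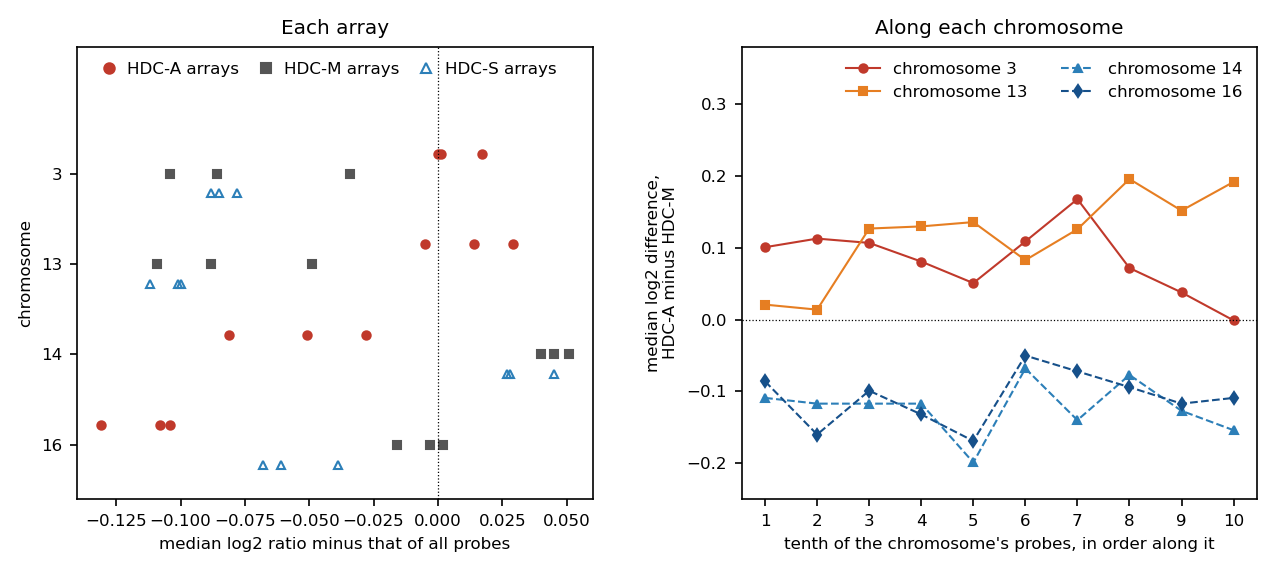
Left, median log2 ratio of the probes of 4 chromosomes on each array, minus the median of all probes on that array; right, median difference between HDC-A and HDC-M tumours in 10 consecutive blocks of each chromosome's probes. The HDC-A circles lie apart from the squares and triangles in every row, and the shift runs along the whole of chromosomes 14 and 16 but not through the first 2 blocks of chromosome 13.

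The uneven distribution bears on the gene lists, since 19 of the 62 called list genes lie on these 4 chromosomes, where 242 of the 1656 measured list genes lie. All 10 on chromosomes 3 and 13 were higher (among them Psrc1, Zmat3, Ddit4l, Spry1, Pfn2, Ctso, Hapln1, Cox7c and Gpx8), and all 9 on chromosomes 14 and 16 were lower (among them Bdh1, Pdhb, Sucla2, Rfc4, St3gal6, Sdf2l1 and Mrpl40). Beyond the list calls, Emb (chromosome 13) was higher, and the dimmer Dct probe (chromosome 14) and Coro7 (chromosome 16) were lower. The part of the chromosome-wide shift in these genes was not tested. The medians of the amino acid response, sterol and p53 lists without genes of the 4 chromosomes were -0.27, -0.30 and 0.12.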

How the data were processed

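Tumour RNA was hybridised to 9 2-colour Agilent arrays, 3 per group, all with tumour in Cy5. Spot and background intensity values and the detection, saturation and outlier marks (other values, not measurements) were deposited as scanner output of Agilent Feature Extraction 8.5.1.1, per the file headers. The deposited value table holds log10 ratios, equal to the scanner software's dye-normalised ratio on every array. Amplification was linear, per the labels' protocols.

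Spot means were corrected with normexp (offset 50), normalised by loess within arrays and tested in limma 3.58.1 (R 4.3.3) in 1 model of all 9 arrays, with Benjamini-Hochberg adjustment. Control and outlier spots were left out. Probes had to be well above background in Cy5 on at least 3 of the 9 arrays, which kept 26871, of which 26867 could be tested. Of 41174 probes, 22072 were named by accession, 142 by another accession, 663 by symbol, 658 by synonym and 876 by the file's name, leaving 16763 unnamed. The brightest probe stood for a gene. The pipeline was tested on simulated data. The number of arrays limits the precision, and p-values measure the spread between pools.

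The members, lists and tests were chosen with earlier results of these data known. Genes were named if they belong to the histamine list, were called list members, were among the 15 highest or 15 lowest called probes without overlap or the 15 largest differences apart from both groups, or were among the 3 smallest p of a list described at length. Other members given with values that did not pass were picked after their values were seen. Deviations of same-numbered arrays correlated at 0.107, 0.548 and 0.131 between HDC-A and HDC-S, each over 0.1. Between HDC-A and HDC-M not all did, though replicate 2 reached 0.152. The main fit used no replicate block, and an alternative used the replicate number as a block over all 3 groups. The labels give no reason for pairing. Alternatives changed the background correction, normalisation, probe filter, outlier marks, scan day, groups in the fit, weights and single arrays. Promoters came from RefSeq (GRCm38.p6). Some results are not reported here.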

Additional observations from a re-analysis of the deposited data

How the results depend on the processing

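The 387 calls against HDC-M and the 216 apart from both groups depended on the normalisation and on single arrays. They were 18 and 12 with the scanner software's ratio, and 18 and 12 with the deposited value table, which holds the same ratios. They were 2 and 1 with median centring, which shifted the median of all genes to -0.17, and 50 and 19 with arrays scaled to 1 spread. No background correction gave 571 and 335, the Cy5 channel alone 258 and 125, and array weights 644 and 344. Scan day as a block gave 189 and 110, and scan day 1 alone 5 and 3. With the HDC-A and HDC-M arrays alone, 86 were called. Leaving out 1 array gave 21 to 218 and 14 to 143; a pool's loss also leaves fewer arrays in the fit. Without chromosomes 3, 13, 14 and 16, an alternative added after seeing the data, they were 231 and 126. The cause of the other changes was not tested.

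The replicate block gave 193 and 122 calls. The deviations of same-numbered HDC-A and HDC-M arrays correlated at -0.152, 0.152 and 0.0319. Between HDC-A and HDC-S only replicate 2 (0.548) exceeded 0.152, so these values cannot settle which groups the numbers pair. Of the 48 named probes apart from both groups, 28 remained so with the block.

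Of the 76 called probes named by the rule, 72 kept their direction under every alternative, but only 1 passed the threshold under all of them. With median centring Adam17 was -0.02, Gpx8 -0.05 and Mrps30 -0.08, where the median of all genes was -0.17. With scaling Asns was 0.32. The Hdc difference stayed between -0.46 and -0.03.

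The chromosome medians, described after seeing the data, kept their sign in every setting. For chromosomes 13, 14 and 16 they were 0.087, -0.097 and -0.080 without background correction, and 0.094, -0.141 and -0.124 on scan day 2 alone, where 1 array a group allows no test. The scanner ratio and the value table both gave 0.160 on chromosome 3, 0.199 on 13, -0.198 on 14 and -0.158 on 16. Chromosomes 14 and 16 were at -0.148 and -0.140 with median centring and -0.091 and -0.068 with scaling, and chromosome 16 at -0.091 on scan day 1 alone. Leaving out 1 array gave -0.113 to -0.094 on chromosome 16.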
